A study of Bos taurus with 14 samples.

Results

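MX1, MX2 and TMPRSS2 lie next to each other in the cattle genome, and their RNA was followed in granulocytes and in bovine endometrial stromal cells (BES) exposed to interferon tau (IFNT). These are 3 of the 6674 genes that could be named on the array, each measured by 1 of the 15208 non-control probes of a custom Agilent bovine design: probe ABR167 for MX1, and the probes whose annotation in the scanner files names MX2 (ABR1411) or TMPRSS2 (A_73_102445, described as similar to the human gene). No other probe named MX1. Each of the 14 arrays held Cy3-labelled RNA of 1 Bos taurus sample: 4 granulocyte samples with IFNT, 4 granulocyte samples with phosphate-buffered saline (PBS), 3 BES samples with IFNT and 3 BES samples with PBS. Every incubation lasted 2 h. The IFNT dose is written as 1 mg/mL in the labels, an unusually large amount of any interferon, and whether its unit is right could not be checked. The labels give no breed, age or sex of the animals, no passage of the BES and no purity of the granulocytes. Nor is it stated that the replicates of a group are different animals or cultures, so errors and p-values measure the spread between these samples, which may be technical.

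IFNT, a type I interferon, is secreted by the conceptus of ruminants and signals its presence to the mother. It acts through the receptor chains IFNAR1 and IFNAR2 and the transcription factor complex ISGF3, which switches on interferon-stimulated genes. MX1 and MX2 are dynamin-like GTPases of that class: MX proteins assemble into rings and block the multiplication of many viruses, and MX1 and MX2 transcripts in blood leukocytes are widely used in cattle as signs of an early conceptus. TMPRSS2 is a serine protease of the cell surface, best known from epithelia, where it cleaves the haemagglutinin of influenza viruses and the spike of coronaviruses so that they can enter the cell. It is not usually counted among the interferon-stimulated genes.

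The probe sequences are shown because each gene was read through this single stretch of 60 bases alone; no base is marked by capitals.
MX1: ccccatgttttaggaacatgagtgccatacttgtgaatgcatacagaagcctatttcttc
MX2: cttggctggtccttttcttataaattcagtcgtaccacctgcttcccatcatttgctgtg
TMPRSS2: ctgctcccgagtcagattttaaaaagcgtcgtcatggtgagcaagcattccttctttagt
The MX1 and MX2 probes, annotated in the files with NM_173940 and NM_173941, shared no run longer than 6 bases with each other on either strand. Against all other probes of the array the longest shared run was 12 bases for MX1, 14 for MX2 and 13 for TMPRSS2. The GC content was 41.7% for the MX1 probe and 45.0% for each of the others. The TMPRSS2 probe is annotated with the expressed sequence tag CB428837, so that its name rests on the likeness that the file records. By the RefSeq gene order of assembly ARS-UCD2.0, MX2, MX1 and TMPRSS2 follow each other in this order on chromosome 1, with no other protein-coding gene between them. The scanner files name no genome build, and no coordinates are stated here.

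Levels below are on the log2 scale, as the log2 processed signal minus the 75th percentile of the same array, so that 0 is the brightness of that percentile. A probe is called well above background where the scanner software marked it so. Between 66.4% and 70.9% of probes were well above background on each granulocyte array, and between 71.6% and 76.1% on each BES array. All granulocyte arrays lay on one slide and all BES arrays on another. A level compared between the cell types therefore compares the slides as well, and these cannot be told apart. On the granulocyte slide all IFNT samples lay in one row of arrays and all PBS samples in the other, so row and treatment cannot be told apart there. Of the 8 granulocyte markers with a probe, 8 were well above background on all granulocyte arrays, while CXCR1, ITGAM and FCGR3A were not on any BES array. All 8 measured stromal markers were well above background on every BES array, 4 of them (VIM, COL1A1, THY1 and FN1) were so on every granulocyte array, and COL1A2, COL3A1 and LUM were not on any. VIM lay at about the same level in granulocytes and BES with PBS (4.67 and 4.53), and THY1 was higher in granulocytes (−1.88 and −4.39). Of the 4 tested in granulocytes, COL1A1 rose with IFNT by 1.42 ± 0.09 (limma adjusted p 5.02e-06) and the others did not pass. The BES also carried 5 of 6 measured epithelial markers on every array (KRT8, KRT19, CDH1, MUC1 and CLDN4), with EPCAM on none. In BES the 6 epithelial markers summed to 217 to 219 multiples of the 75th percentile with IFNT and 207 to 235 with PBS. The 8 stromal markers summed to less there, 167 to 170 with IFNT and 156 to 159 with PBS. Other leukocytes were read too: the 5 measured monocyte and macrophage markers summed to 26.5 to 27.5 multiples of the 75th percentile in granulocytes with IFNT and 28.3 to 30.8 with PBS, the 6 T and NK cell markers to 4.47 to 4.66 and 4.46 to 4.63, the 2 B cell markers to 1.57 to 1.62 and 1.54 to 1.67, and the 2 eosinophil markers to 10.6 to 12.1 and 13.7 to 14.5. The granulocyte markers themselves summed to 827 to 908 with IFNT and 806 to 1014 with PBS. These sums are carried by the brightest genes, and single markers moved with IFNT in granulocytes (log2, limma). Of the 5 monocyte and macrophage markers 3 rose and 1 fell: CD14 by 1.03 ± 0.07, C1QB by 0.47 ± 0.05 and C1QC by 0.41 ± 0.04 rose, and CD68 (−0.36 ± 0.05) fell. Of the 8 granulocyte markers 3 rose and 2 fell: among them FCGR3A rose by 1.34 ± 0.09 and LTF by 1.00 ± 0.06, and MMP9 (−0.56 ± 0.05) and CXCR1 (−0.23 ± 0.05) fell. Both eosinophil markers fell, CCR3 (−1.34 ± 0.07) and ALOX15 (−0.21 ± 0.06), of the T and NK cell markers NKG7 rose by 0.93 ± 0.18, and neither B cell marker passed. The part of these other cells in the responses was not tested.

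MX1 rose in both cell types, and from very different starting levels. In granulocytes its processed signal was an intensity of 213160, 212054, 197850 and 196690 with IFNT, against 33777, 47775, 35402 and 48598 with PBS. The level was 7.40 ± 0.05 with IFNT and 4.99 ± 0.09 with PBS (log2, SD, n = 4 each), and the lowest IFNT array lay 2.29 above the highest PBS array. The change was 5.31-fold (log2 2.41 ± 0.06, SE; 95% confidence interval 4.86-fold to 5.80-fold; limma adjusted p 9.87e-09). MX1 was not saturated on any array, although all 8 granulocyte readings came from the scanner's second, dimmer scan, scaled up.

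In BES the MX1 signal was an intensity of 14086, 14482 and 13288 with IFNT, against 143, 98.7 and 115 with PBS. These untreated cells held little MX1 RNA, yet it was well above background on all 3 PBS arrays, so that the rise is a measured one and not a bound. Levels were 2.23 ± 0.06 with IFNT and −4.64 ± 0.15 with PBS (log2, SD, n = 3 each). MX1 rose 117-fold (log2 6.87 ± 0.08, SE; 95% confidence interval 102-fold to 135-fold; limma adjusted p 4.47e-07), the third largest fitted rise among 11309 probes tested. In array row 2 of that slide, which held every IFNT sample but only PBS sample 3, the fit with array row as a covariate gave a rise of 6.98 ± 0.11.

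**Figure D1:**
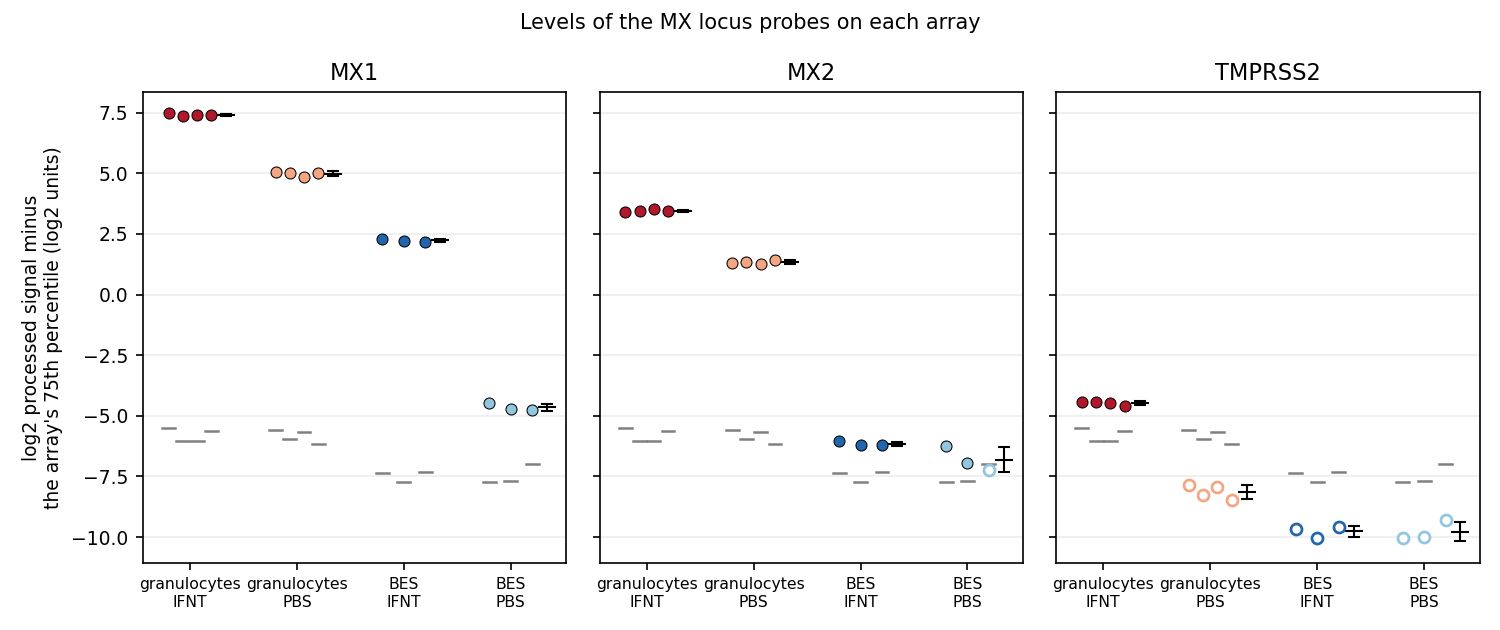
Log2 level of MX1, MX2 and TMPRSS2 on each of the 14 arrays (points; open where the probe was not well above background), with the mean and SD of each group beside the points. Grey ticks mark the lowest level that each array called well above background. The 4 MX1 levels order without overlap, MX2 in BES lies near the ticks, and TMPRSS2 lies above them only in granulocytes with IFNT.

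The order of the MX1 levels was granulocytes with IFNT, granulocytes with PBS, BES with IFNT and BES with PBS, and no neighbours in that order overlapped. Granulocytes exceeded BES by 9.64 ± 0.07 with PBS (796-fold) and by 5.17 ± 0.07 with IFNT (36.0-fold; log2, SE). Across the array such differences were the rule: of 12046 probes tested, 46.7% were higher in granulocytes with PBS and 47.6% with IFNT (limma), and in 46.1% and 47.5% every granulocyte array lay above every BES array. Granulocytes with PBS, at 4.99, stood above BES with IFNT at 2.23, a pair that was not tested. In bulk RNA, a larger share of cells with the transcript and more transcript per cell cannot be told apart, here or in any level below.

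The response of MX1 was smaller in granulocytes than in BES. The difference of the log2 changes, granulocytes minus BES, was −4.47 ± 0.10 (SE; 95% confidence interval −4.68 to −4.25; limma adjusted p 2.66e-11). The MX1 signal thus multiplied by a factor 22.1 times larger in BES. Of all probes tested for this difference, 14.8% gave a significantly smaller and 11.7% a significantly larger response in granulocytes. The granulocyte readings came from the dimmer scan and the BES readings from the brighter one; its part in this difference was not tested.

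MX2, the neighbour of MX1, rose in granulocytes alone by the test used. There its signal was an intensity of 12568, 14115, 13509 and 12861 with IFNT, against 2470, 3721, 2910 and 4052 with PBS. The levels were 3.45 ± 0.05 with IFNT and 1.33 ± 0.08 with PBS (log2, SD, n = 4 each), with a gap of 1.95 between the nearest arrays of the groups. The rise was 4.35-fold (log2 2.12 ± 0.05, SE; 95% confidence interval 3.99-fold to 4.73-fold; limma adjusted p 1.46e-08).

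BES held MX2 only close to the detection limit. The signal was an intensity of 43.2, 42.5 and 39.3 with IFNT, all well above background, against 42.0, 21.0 and 20.3 with PBS, of which PBS sample 3 was not. Before scaling, PBS sample 1 was thus brighter than IFNT sample 3, and after scaling the lowest IFNT array lay above it by only 0.015 on the log2 scale. That narrow ordering, IFNT above PBS on every array, was shared by 12.5% of the probes tested in BES. The raw spot brightness, before any correction, overlapped between the groups, at 101 to 104 with IFNT and 82.2 to 112 with PBS. Levels were −6.15 ± 0.09 with IFNT and −6.81 ± 0.52 with PBS (log2, SD, n = 3 each).

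The MX2 change in BES was 1.57-fold (log2 0.65 ± 0.24, SE; 95% confidence interval 1.05-fold to 2.36-fold) and did not pass the threshold (limma adjusted p 0.168, unadjusted p 0.0347). A change of the size seen in granulocytes lay outside that interval. PBS sample 1 decided the call: without it the change was 0.94 ± 0.11 and passed (adjusted p 0.0229). With array row as a covariate the change was 1.09. That fit sets the IFNT arrays against PBS sample 3 alone, the array on which MX2 was not well above background. With normexp background correction, which adds an offset of 50 to every signal, the change was 0.11 ± 0.07.

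**Figure D2:**
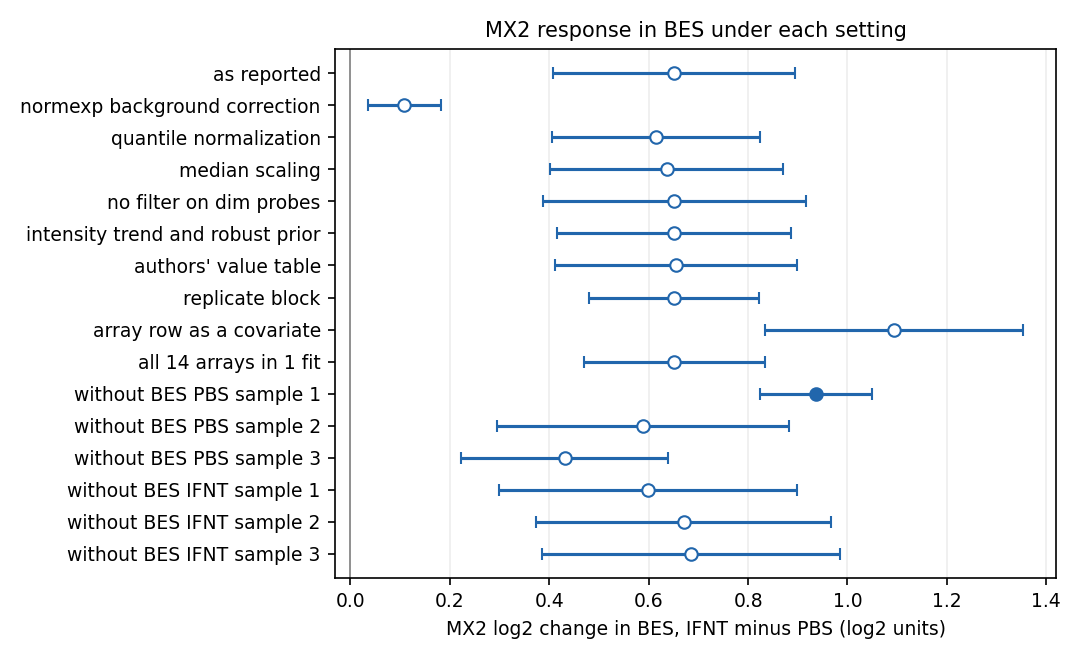
Log2 change of MX2 in BES, IFNT minus PBS, as reported and under each alternative setting (points; bars are the SE). The filled point, without BES PBS sample 1, is the only setting of those drawn that passed the threshold. The values span 0.11 to 1.09. The highest, with array row as a covariate, rests on PBS sample 3 as the only PBS array.

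The MX2 response was larger in granulocytes than in BES, opposite to MX1. The difference of the log2 changes was 1.47 ± 0.24 (SE; 95% confidence interval 0.94 to 2.00; limma adjusted p 7.67e-04). Without BES PBS sample 1 the difference was 1.18 ± 0.12. The order of the MX2 levels was that of MX1, but only the granulocyte groups and the step from BES to granulocytes were apart beyond the spread; the BES groups were not separated by the test. Granulocytes exceeded BES by 8.14 ± 0.17 with PBS and by 9.61 ± 0.17 with IFNT (log2, SE), whereas the MX1 gap was smaller with IFNT than with PBS.

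**Figure D3:**
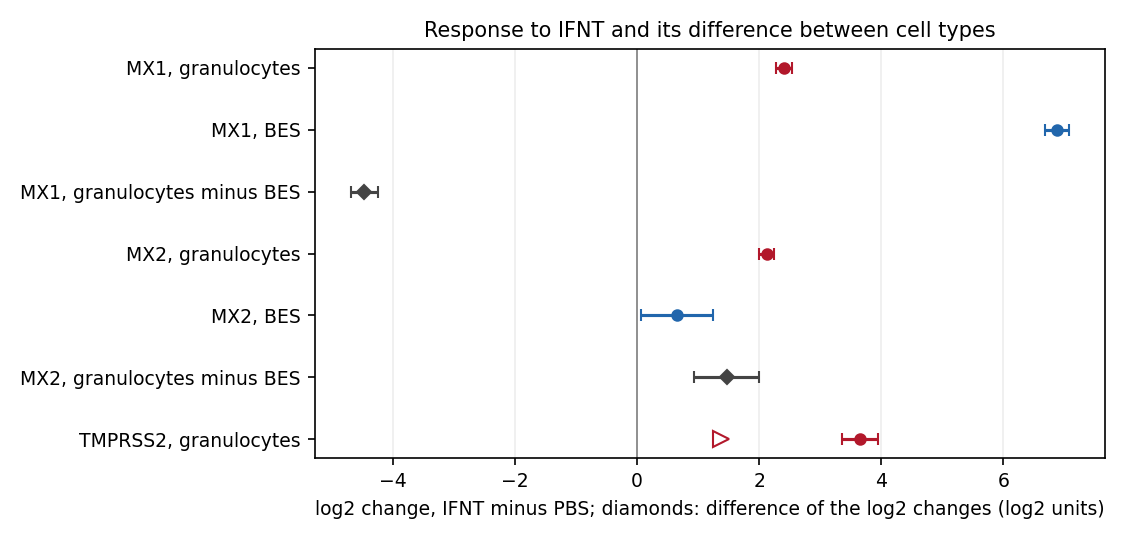
Log2 change with IFNT against PBS in granulocytes (red circles) and BES (blue circles) and the difference of these changes, granulocytes minus BES (grey diamonds), with 95% confidence intervals from limma. The open triangle is the lower bound for TMPRSS2, 1.37; the difference is −4.47 for MX1 and 1.47 for MX2.

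TMPRSS2 RNA was found only in granulocytes with IFNT. Its signal there was an intensity of 56.4, 60.2, 53.4 and 48.7, well above background on all 4 arrays. With PBS the signal was 4.43, 4.78, 4.91 and 4.25, well above background on none of 4 arrays, and 3 of these values are substitutes that the scanner software writes for spots at background. The raw spot brightness, before any correction, was 118 to 128 with IFNT and 73.8 to 77.3 with PBS, without overlap. In scaled levels, 16.8% of probes tested in granulocytes had every IFNT array above every PBS array.

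The rise of TMPRSS2 in granulocytes was at least 2.59-fold, as the mean IFNT level against the lowest signal that each PBS array called well above background. The fitted log2 change of 3.65 ± 0.13 (SE, n = 4 each; limma adjusted p 1.02e-07) depends on the substitute values, and was 0.77 with normexp background correction, whose offset of 50 is about as large as the IFNT signal itself. The probe entered the test only through the IFNT arrays, which made up the 4 detections required. In BES all 6 values were substitutes, between 2.52 and 4.89, and no change, fold or difference of responses is stated. With IFNT, granulocytes exceeded BES at least 7.98-fold.

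Being absent with PBS and present with IFNT was an uncommon pattern. In granulocytes 36 of 15208 probes, TMPRSS2 among them, were well above background on all IFNT arrays and on no PBS array, and 9 probes had the opposite pattern. In BES the numbers were 12 and 3. A rise past the threshold, in contrast, was common in granulocytes: 17.2% of 10379 probes tested rose and 27.4% fell, and in 16.8% every IFNT array lay above every PBS array. In BES 2.29% of probes rose.

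Markers of epithelia, the usual site of TMPRSS2, were read beside it. All 6 measured epithelial markers were well above background on every granulocyte array with IFNT, and 4 of them on every one with PBS. The sum of their signals ranged from 4.11 to 5.89 with IFNT and from 4.39 to 5.93 with PBS, in multiples of the array's 75th percentile. In granulocytes, where 17.2% of all probes tested rose, 2 of the 6 rose and none fell: the surface mucin MUC1 by 2.84 ± 0.16, from 1 detection of 4 arrays with PBS, and the adhesion protein EPCAM by 0.40 ± 0.08 (log2, SE; limma adjusted p 1.70e-06 and 4.63e-03). The keratins KRT8 (0.15 ± 0.19) and KRT19, the cadherin CDH1 and the junction protein CLDN4 did not pass. The part of epithelial cells in the TMPRSS2 signal was not tested. In BES, another cell type on another slide, 5 of these markers but not EPCAM were well above background on every array. TMPRSS2 was not well above background there with or without IFNT. What this means for the granulocyte signal was not tested.

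Of the 12 protein-coding genes nearest to the trio on the chromosome, 6 on each side, only RIPK4, a kinase of epithelial differentiation, had a named probe. Its signal was an intensity of 3.68 to 5.39 in granulocytes with IFNT and 4.23 to 4.91 with PBS, well above background on none of the 8 arrays, and it was not detected in BES either. The response of the genes beyond the trio was therefore not measured on either side.

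The pathway that drives MX genes responded in both cell types. The counts of each gene list below stand beside 17.2% of all probes rising and 27.4% falling in granulocytes, and 2.29% rising in BES. Of 10 measured genes of interferon signalling in granulocytes, 7 rose and 2 fell, with a median log2 change of 0.87 against −0.05 over all probes tested. USP18, which removes ISG15 from proteins and restrains the receptor, rose by 3.98 ± 0.09 and the transcription factor IRF3 by 2.56 ± 0.09. Of 8 tested in BES, 5 rose and none fell (median 0.99 against −0.02 over all probes tested): IRF9, the DNA-binding subunit of ISGF3, rose by 2.89 ± 0.05, USP18 by 4.23 ± 0.09 and IRF1 by 1.38 ± 0.07. The receptor chain IFNAR2 changed by −0.43 ± 0.05 in granulocytes, a fall, and by 0.19 ± 0.05 in BES, which did not pass.

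Other antiviral effectors rose with MX1. Of 19 effectors tested in granulocytes 18 rose, SAMHD1 did not pass, and their median log2 change was 2.08 against −0.05 over all probes tested. MX1, at 2.41, and MX2, at 2.12, lay close to that median. In BES 16 of 18 rose, and SAMHD1 (0.10) and UBA7 (−0.0029) did not pass. Of the 16, OAS1X and OAS2 entered the test only through their IFNT arrays. The median there was 3.03 against −0.02 over all probes tested, or 2.69 with OAS1X and OAS2, not detected with PBS, set to their lower bounds. MX1, at 6.87, lay far above that median, and of the 18 effectors only SAMHD1 and UBA7 gave a change below the 0.65 of MX2. Of 19 effectors whose responses were compared between the cell types, 11 responded significantly less in granulocytes, as MX1 did. A further 4 responded significantly more, as MX2 did: UBA7, OAS1Z, PML and IFIT5. Over all probes tested for this difference the shares were 14.8% and 11.7%. OAS1Z was well above background on no BES array and was not tested within BES, so its difference rests on values at background. The BES responses of OAS1X and OAS2 start from no detection with PBS, and ISG15 was saturated on 4 arrays, which limits their differences. The probes of OAS1Z and OAS1X may not tell these closely related genes apart. RTP4, a chaperone of receptor proteins with antiviral action, rose by 4.87 ± 0.04 in granulocytes and by 5.64 ± 0.08 in BES. The nuclear body protein PML and the RNA-binding IFIT5 rose by 2.91 ± 0.05 and 2.64 ± 0.05 in granulocytes, and PARP9, an ADP-ribosyltransferase family member, by 3.03 ± 0.05 in BES.

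Among relatives of MX1 and MX2 in the dynamin superfamily the guanylate-binding proteins moved most. Of 6 tested in granulocytes, where 17.2% of all probes rose and 27.4% fell, 3 rose and none fell: GBP5 by 4.71 ± 0.09, GBP4 by 3.70 ± 0.07 and the mitochondrial fusion protein MFN2 by 1.28 ± 0.07. Of 6 tested in BES, where 2.29% of all probes rose, GBP4 and GBP5 rose and MFN2 (0.15 ± 0.05) did not pass. GBP4 and GBP5 went from no detection with PBS to at least 27.3-fold and at least 6.06-fold higher. Both entered the test only through their IFNT arrays, so their calls cannot be weighed against the 2.29%. DNM2, a dynamin that pinches off endocytic vesicles, changed by −0.03 ± 0.04 in granulocytes and by −0.19 ± 0.05 in BES and passed in neither.

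Proteases and inhibitors related to TMPRSS2 gave small changes. Of 5 tested in granulocytes, 2 rose and 2 fell, in cells where a call was common (17.2% of all probes rose and 27.4% fell): the membrane protease matriptase (ST14) by 0.59 ± 0.07 and its inhibitor SPINT1 by 0.66 ± 0.15 rose, while the endosomal protease CTSB (−0.33 ± 0.07) and FURIN (−0.27 ± 0.06), which like TMPRSS2 cleaves viral surface proteins, fell. None of 4 tested in BES passed in limma, and of these 4 only ST14 (−0.22 ± 0.06) had an unadjusted p under 0.05, at 7.74e-03. Of the 24 genes of this list, 9 had a named probe.

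**Figure D4:**
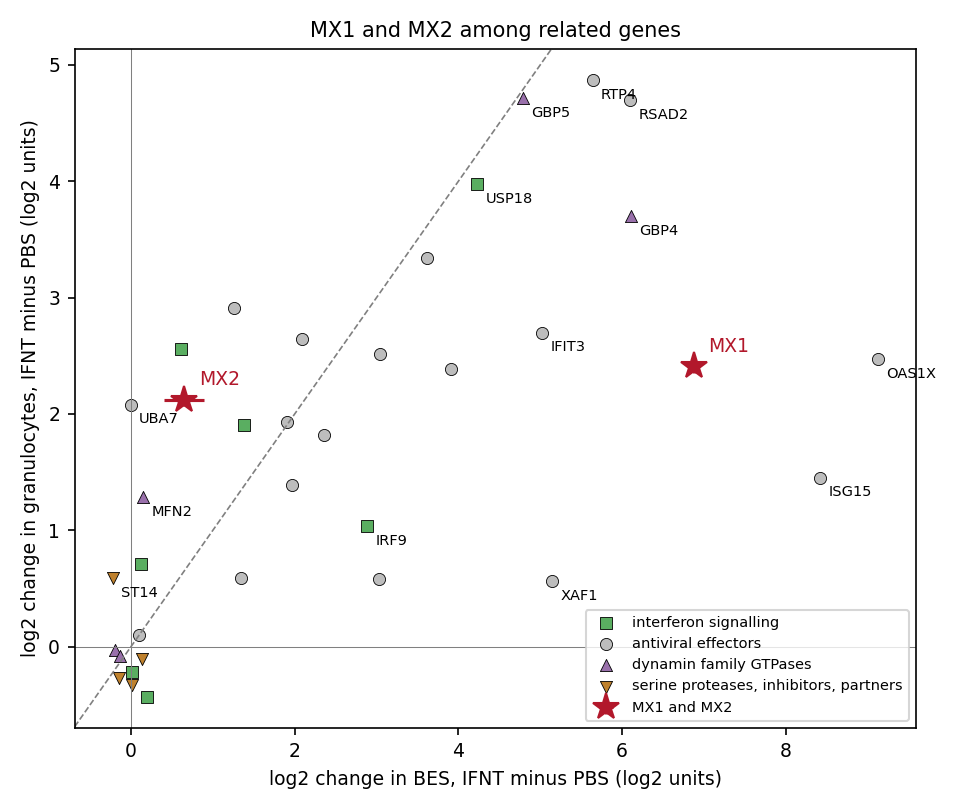
Log2 change with IFNT in granulocytes (vertical axis) against that in BES (horizontal axis) for MX1 and MX2 (stars; bars are the SE) and genes of 4 lists tested in both cell types (symbols; 1 gene is not drawn). The dashed line marks equal changes. The BES values of GBP4, GBP5, OAS1X and OAS2 are fitted from PBS arrays with no detection, and ISG15 was saturated on the granulocyte arrays with IFNT; MX1 lies right of the line and MX2 left of it.

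The genes whose levels ran most like each member over the 14 arrays were taken by the root mean square difference of log2 levels, after each probe's own mean was removed, over 5861 probes with a gene symbol. All 14 arrays share the large gap between the cell types, which this measure carries. The genes were chosen by likeness over these same arrays. A rise or a pattern of detection shared with a member thus follows largely from the choice and is no separate result. The 4 closest to MX1 were GBP4, the ubiquitin-like ISG15, the RNA-binding IFIT3 and the double-stranded RNA sensor OAS1X, all of which rose in both cell types. Of these only IFIT3, at 0.92, was measured within range on all 14 arrays: ISG15 was saturated on 4 arrays and GBP4 and OAS1X were not well above background on any BES array with PBS, so no distance or order is stated for them. Closest to MX2 were the bacterial sensor TLR4 (0.35), the acetate-activating enzyme ACSS1 (0.50, from 1 detection on the 6 BES arrays), lactoferrin LTF (0.60) and the leukocyte tetraspanin CD53 (0.63). Each of these 4 rose in granulocytes, by 0.81 to 1.85, and stood far lower in BES, where TLR4, LTF and CD53 did not pass the test and ACSS1 was not tested. For TMPRSS2, 9 of the 14 values are the software's substitutes, which other probes at background share on the same array, so that a distance largely compares substitutes and none is stated. The rule gave the interferon alpha gene IFNAA, the transcription factor FOXQ1, the glucagon gene GCG and LOC515736, the last of which was well above background on all 14 arrays. IFNAA, FOXQ1 and GCG had the pattern of detection of TMPRSS2, on all 4 granulocyte arrays with IFNT and on no other array, and IFNAA belongs to a family of near-identical genes that its probe may not tell apart.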

How the data were processed

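The authors' deposited scanner files hold 1-colour (Cy3) fluorescence intensity, made with Agilent Feature Extraction 9.5, per the submitters' processing notes. Per the file headers the software subtracted background, removed spatial trends, combined a brighter and a dimmer scan and replaced signals at background by substitutes. The authors' deposited value table holds log2 values, which equalled the log2 processed signal minus 1 constant per array. Each array's log2 processed signal was scaled to its 75th percentile over 15208 probes, without spots that the software marked as outliers (non-uniform or population). Testing required detection well above background on 3 or more of the BES arrays, or on 4 or more of the granulocyte arrays, and for contrasts of both cell types when either held. The number of arrays limits the precision.

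IFNT was compared with PBS in a separate fit per cell type. Contrasts between cell types used all 14 arrays (limma 3.58.1, R 4.3.3, two-sided, Benjamini-Hochberg over all probes tested, threshold 0.05). On simulated data, changes of 1 on the log2 scale were recovered in 96 of 100 probes for granulocytes, 95 for BES and 69 for the difference of responses. Probe names came from the RefSeq gene table (6989 probes named, 901 through a description as similar to a gene); genes with several probes were represented by the brightest one tested. The rule named all members, up to 3 genes per list and cell type with the smallest p, the measured chromosome neighbours and the 4 most alike genes per member; IFNAR2, SPINT1, SAMHD1, UBA7, OAS1Z, OAS2, the single cell markers, the values of MFN2 in BES and of DNM2 in granulocytes were named after their values were seen. The members and lists were chosen with earlier results of these data known. Some genes of the lists are not reported here by name. A planned motif search in promoters was not run.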

Additional observations from a re-analysis of the deposited data

Results flagged for a closer look

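The response of MX1 to IFNT differed between the cell types by a test of the difference itself. The log2 change was 2.41 in granulocytes and 6.87 in BES, a difference of −4.47 ± 0.10 (SE, limma adjusted p 2.66e-11). Every IFNT array lay above every PBS array in each cell type, an ordering shared by 16.8% of probes tested in granulocytes and 12.5% in BES.

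The response of MX2 differed in the opposite direction, with a log2 change of 2.12 in granulocytes and 0.65 in BES and a difference of 1.47 ± 0.24 (SE, limma adjusted p 7.67e-04). The BES change lies close to the detection limit and did not pass by itself (limma adjusted p 0.168). MX2 was not well above background on BES PBS sample 3, so this response is less well measured than that of MX1. No sample of the granulocyte groups stood apart from the rest of its group in any member by Dixon's criterion; BES groups of 3 were not examined in this way.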

How the results depend on the processing

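Across 187 alternatives for 12 results on the members, 186 kept the direction and the side of the threshold, and none turned the direction. The exception was MX2 in BES, which passed without BES PBS sample 1 (0.94, adjusted p 0.0229); leaving out single samples gave 0.43 to 0.94, and adjusted p over all its alternatives ranged from 0.0229 to 0.387. Many of the 187 alternatives had little room to change a call. The contrasts of levels between the cell types, with 13 alternatives each, were large and coincide with slide. The 16 alternatives for TMPRSS2 in granulocytes concern a probe that entered the test only through its IFNT arrays. The total therefore says little about the other results. The fitted TMPRSS2 change in granulocytes ranged from 0.77 with normexp to 3.98. The MX1 change ranged from 6.21 to 6.98 in BES and from 2.37 to 2.43 in granulocytes, the MX2 change in granulocytes from 2.05 to 2.16, and the difference of responses from −4.58 to −3.81 for MX1 and from 1.03 to 1.99 for MX2.

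The count of probes past the threshold in BES, 414, moved most: 189 without a filter on dim probes (163 higher, 26 lower, more probes being tested), 1011 with an intensity trend and robust prior (432 higher, 579 lower), 149 with array row as a covariate (129 higher, 20 lower) and 183 to 534 when single samples were left out, below 414 divided by 1.5 without PBS sample 1 or 2 or any IFNT sample. The split of 259 higher and 155 lower became 294 and 322 with normexp and 248 and 222 with median scaling. The count for the difference of responses, 3197, was 2100 with array row as a covariate. The cause was not tested. Array row could not be fitted in granulocytes, where it coincides with treatment. In BES every fit with array row sets the IFNT arrays against PBS sample 3 alone.

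Same-numbered samples did not deviate together throughout (correlations 0.05, 0.06 and −0.01 in BES, and 0.14, 0.18, 0.20 and −0.12 in granulocytes). Such correlations cannot show whether equal numbers mark the same animal or culture. The main fits left the samples unpaired. With a replicate block the MX2 change in BES was 0.65 ± 0.17 (adjusted p 0.122), 318 probes passed in BES, and no call on a member changed. Signal over background limits MX2 in BES and TMPRSS2 everywhere.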
